A study of Mus musculus with 4 samples.

Results

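Start codon peaks are m6A peaks of protein-coding transcripts that cover both the 5′ untranslated region (5′ UTR) and the coding sequence (CDS), so that the start codon lies inside them. They were taken from 2 deposited peak lists of mouse heart by the authors' annotation of each line, with or without the 3′ UTR. In all, 1753 of 39717 lines met this rule, 1094 of 23155 in the NC list and 659 of 16562 in that of CHAPIR. The hearts came from C57BL/6 mice that carried osmotic minipumps for 14 days. The pumps held a mimic of CHAPIR, which is a piRNA (a small RNA bound by PIWI proteins) associated with cardiac hypertrophy, at 30 mg/kg, or a scrambled mimic (NC) given by the same procedure, and the hearts are labelled 2 weeks. The comparison asks how added CHAPIR relates to the m6A methylome of the heart. Age, sex and number of animals per library are not stated in the labels, and no cell type was separated from the whole heart. Each condition had 1 immunoprecipitated library set over 1 input library, so the spread between animals is unknown and every difference is between these libraries, with no test.

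N6-methyladenosine (m6A) is a methyl mark that a METTL3 and METTL14 complex places on mRNA, most often near stop codons and in long exons, and that YTH-domain proteins bind. Marks in the 5′ UTR and around the start codon are less common and have been linked to the choice of start site and to cap-independent translation under stress. Transcripts that begin with adenosine can also carry m6Am next to the cap, which antibodies against m6A bind as well. In heart muscle, m6A has been tied to hypertrophic growth and to the handling of calcium.

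The deposited lines show where enrichment passed the authors' threshold, and a transcript without a line may be methylated below it or expressed too little. Depth is unknown because read counts were not used here. Fewer cells of a type and less RNA per cell cannot be told apart in whole heart. Of 7 cardiomyocyte markers, 6 carried a protein-coding peak in the NC list and 7 in that of CHAPIR. A gene has a line for each of its transcripts, so lines are not independent, and every interval given here is an exact (Clopper-Pearson) 95% interval that covers counting error only.

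The sequences that begin these transcripts were examined where a start codon peak reached the transcript start. Peaks of 145 RefSeq starts of either list had their 5′ end within 30 bases upstream or downstream of the start. Among them, 28 (19.3%, 13.2 to 26.7) held GGAC, the core of the common m6A motif, in their first 50 transcribed bases, searched on the transcribed strand only. The share was 20% over all 21230 protein-coding starts of the table and 19.9% over the 6370 starts of genes with a protein-coding peak in either list, a background chosen after the data were seen. The longer GGACT, which contains GGAC, was present in 6.21% of the 145 starts, 5.86% of all starts and 5.31% of the starts of genes with a peak. Pooled over both lists, GGAC was therefore about as frequent at these starts as at other starts, and each list is given apart below. In 21 genes, 24 GGAC copies lay inside the start codon peak itself, and 11 of those copies are marked below to show where the motif sits relative to the transcript start. Capitals mark GGAC in windows of 30 bases, 5′ to 3′, from the RefSeq starts of GRCm38.p6. A match is a description and not a mapped methylated base.
Ankrd23: ggagagcaaggggGGACcatggacttcatc
Nabp1: agttgctgcttgGGACgcgggctgcgcggt
Ube2q1: gatcaggaagtgcGGACcgcggcggcggcg
Zc3h15: ccgccgagctgccGGACgccccgacggtag
Dmpk: aagggatagtcagGGACgggcagacatgca
Ndufa8: ggccagccaaaggGGACttgaaggagacgg
Zfp36l1: gggcgccgggagcaggcgtgtgGGACtcct
Trim63: gtcgggggtcaggGGACgaagacaaagagg
Abcf1: gcgccgctggaGGACtcttaactgccgccg
Fkbp3: cggcggctgttccgcagcgtgcatGGACcg
Tsc22d1: cggcagccgagtaGGACcgagctgctgcag
For the first 3 genes the printed copy lay inside such a peak in both lists, for the next 5 in the NC list and for the last 3 in the CHAPIR list. The CHAPIR peak of Ndufa8 covered its copy as well but began more than 30 bases upstream of the start. The window of Ankrd23, which encodes a titin-binding ankyrin-repeat protein, lies at chr1:36535697-36535726 on the minus strand, and its marked GGAC begins at base 27 of the transcript. A second copy, left in lower case, begins at base 34 and also lay inside the peak in both lists. The window of Ube2q1, a ubiquitin-conjugating enzyme, lies at chr3:89773620-89773649 on the plus strand with GGAC from base 25. The Nabp1 window, from a single-stranded DNA-binding protein gene, is at chr1:51478370-51478399 on the minus strand with GGAC from base 13. Trim63, which encodes the muscle ubiquitin ligase MuRF1, has its window at chr4:134315124-134315153 on the plus strand with GGAC from base 18. The Abcf1 window, from a translation-linked ATPase gene, is at chr17:35969721-35969750 on the minus strand with GGAC from base 12.

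An adenosine stood first in 26.2% (19.3 to 34.2) of the 145 starts, against 28.1% of the starts of genes with a peak and 37.4% of all protein-coding starts. A guanosine stood first in 51.7% (43.3 to 60.1), 47.7% and 39.3%. The median GC content of the first 50 bases was 68% at these starts, 66% for genes with a peak and 60% for all starts. The first base and the GC content were thus nearer to those of other genes with a peak than to those of all starts. GGAC was present at 22.1% (14.9 to 30.9) of the 113 NC starts and at 10.8% (5.08 to 19.6) of the 83 CHAPIR starts, and these intervals overlap. These starts share genes, so the 2 shares are not independent.

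Start codon peaks made up 6.37% (6.01 to 6.75) of the 17165 protein-coding lines of the NC list and 5.23% (4.84 to 5.63) of the 12612 of the CHAPIR list. They lay in 582 genes of the NC list, which is 11.1% of its genes with a protein-coding peak. In the CHAPIR list they lay in 340 genes, 7.99% of those with such a peak. The share was lower in the CHAPIR list on both measures. This was not particular to start codon peaks. The share of lines was also lower there for the CDS (50.1% and 36.8%). For the CDS and 3′ UTR (18.2% and 17.1%) and the 5′ UTR (2.27% and 2.17%) it was lower with overlapping intervals. These were 17.6 to 18.8 and 16.4 to 17.7 for the former, and 2.05 to 2.51 and 1.93 to 2.44 for the latter. Only the 3′ UTR took a larger share in the CHAPIR list (23.1% and 38.7%). Merged by position, the lines formed 588 places in the NC list and 341 in that of CHAPIR, so nearly every gene had a single place. Of the lines, 119 NC (10.9%) and 71 CHAPIR (10.8%) ran on into the 3′ UTR and spanned a whole coding sequence. The gene with the most lines in the NC list was Mef2c, a cardiac transcription factor with many annotated transcripts, with 21 lines against 9 in the CHAPIR list. Tpm1, which encodes the thin-filament protein α-tropomyosin, had 10 and 13. No member lay on the mitochondrial genome or chromosome Y.

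These peaks were wide and mostly spliced. NC peaks had a median width of 330 exonic bases (quartiles 206 and 541) and CHAPIR peaks of 268 (177 and 418), against 240 and 181 for all protein-coding peaks. Peaks wholly in the 5′ UTR had a median of 150 in both lists, and those in the CDS of 239 and 210. Peaks that join the CDS and the 3′ UTR, which cross the stop codon, were as wide, with medians of 359 and 271. A single exonic block held 25.7% of NC and 25.2% of CHAPIR start codon peaks, compared with 57.5% and 71.1% of all protein-coding peaks. A wide peak crosses a given point more readily, so the width is partly set by the rule. The widest NC peak covered 2220 bases of Eif5b, the GTPase that joins the ribosomal subunits, at chr1:37998160-38040713, where the CHAPIR peak covered 2190. The widest CHAPIR peak covered 2206 bases of Nexn. Hrc, a calcium-binding protein of the sarcoplasmic reticulum, had a peak of 2202 bases in the NC list and 209 in that of CHAPIR. The splicing factor gene Sart1 had 1947 bases against 240. Eif5b was thus nearly as wide in both lists, while Hrc and Sart1 were far shorter in the CHAPIR list. The narrowest peaks of both lists covered 58 bases.

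The fold of a peak, computed by the authors as its m6A-enriched over its input signal, is used here only within a list. The median fold of start codon peaks was 4.56 (quartiles 3.09 and 6.44) in the NC list, where all protein-coding peaks had 3.51. In the CHAPIR list it was 4.57 (3.26 and 8.09), where all protein-coding peaks had 3.86. An authors' FDR at or under 1e-05 was reached by 75.9% of NC and 76.8% of CHAPIR start codon peaks, beside 56.5% and 62.1% of all protein-coding peaks. Other classes were alike in this. Peaks that join the CDS and the 3′ UTR reached that FDR in 77.0% and 83.5%, and 5′ UTR peaks had median folds of 4.27 and 5.46. The folds reached 68.1 (NC) and 92.6 (CHAPIR). Among genes without clone or model names, the highest of the NC list were 45.6 on Foxc1, a forkhead transcription factor gene, 38.6 on Otulin, a deubiquitinase gene, and 33.2 on Ankrd40. In the CHAPIR list those were 80.1 on Mbd2, which encodes a reader of methylated DNA, 57.0 on the mRNA-binding protein gene Ybx1 and 54.1 on Id1, an inhibitor of basic helix-loop-helix factors.

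The 5′ ends of these peaks mostly lay close to transcript starts. The rule partly sets this, and the contrast with CDS peaks, because every member holds 5′ UTR bases. A RefSeq start of the same gene was available for 909 NC lines (83.1%) and 562 CHAPIR lines (85.3%). The median distance from it to the 5′ end of the peak was 124 bases for NC peaks (quartiles 44 and 682) and 99 for CHAPIR peaks (30 and 476.5), counted as negative upstream and measured on the genome, where an intron may lie between. The 5′ end was within 30 bases of the start for 17.3% and 20.1% and within 300 for 65.1% and 68.5%. The same share within 300 bases was 64.5% and 69.1% for peaks wholly in the 5′ UTR and 3.09% and 2.69% for peaks in the CDS. Within 30 bases it was 10.4% and 15.5% for 5′ UTR peaks. A further 22.4% and 20.6% of start codon peaks began over 1000 bases downstream, beside 12.4% and 15.5% of 5′ UTR peaks. The share far from the start was thus higher for start codon peaks in both lists, and the intervals for the share within 30 bases overlap in the CHAPIR list.

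**Figure D1:**
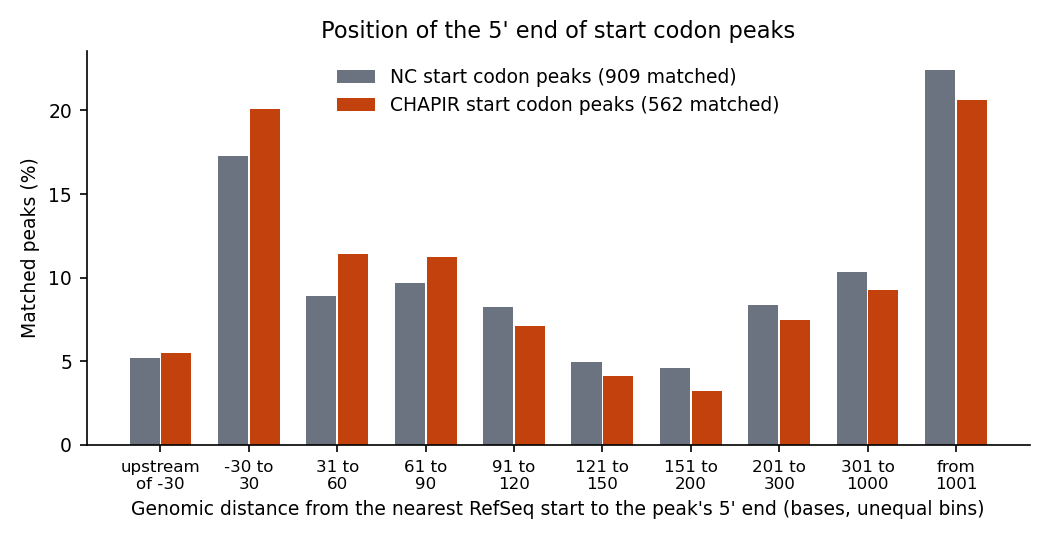
Percent of matched start codon peaks (y axis) by genomic distance in bases from the nearest RefSeq start of the gene to the 5′ end of the peak (x axis, unequal bins), for 909 NC and 562 CHAPIR lines. The bin around the start holds 17.3% of NC and 20.1% of CHAPIR lines, and the bin beyond 1000 bases holds 22.4% and 20.6%.

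Other peaks on the same transcript were common. Another line of the same list was present on 41.0% of transcripts with a start codon peak in the NC list and on 45.1% in the CHAPIR list. Of the protein-coding transcripts with lines but no start codon peak, 29.5% and 26.0% had at least 2 lines. The companion touched the 3′ UTR on 27.6% of transcripts with a start codon peak in the NC list and on 37.9% in the CHAPIR list. A companion wholly in the CDS was present on 19.6% and 13.5%. The companions of start codon peaks were thus more often at the 3′ UTR than inside the CDS in both lists. Over all protein-coding CHAPIR lines, 38.7% lay in the 3′ UTR, 17.1% in the CDS and 3′ UTR and 36.8% in the CDS. In the NC list these shares were 23.1%, 18.2% and 50.1%. A start codon peak also takes up part of the CDS itself, which leaves less room there for a companion.

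The positions of the peaks were then compared between the lists, as exonic blocks on the same strand that share at least 1 base. Of the 1094 NC start codon peaks, 705 (64.4%, 61.5 to 67.3) were overlapped by a CHAPIR line, where 50% of all protein-coding NC lines were. Of the 659 CHAPIR start codon peaks, 532 (80.7%, 77.5 to 83.7) were overlapped by an NC line, where 71.5% of all protein-coding CHAPIR lines were. The NC share was higher than for peaks in the 5′ UTR (37.7%), the CDS (38.4%) and the 3′ UTR (55.6%), and lower than for peaks that join the CDS and the 3′ UTR (71.4%). The CHAPIR share lay below those of the CDS (87.6%) and of the CDS and 3′ UTR (83.3%) and above those of the 5′ UTR (67.2%) and the 3′ UTR (50%). Width moved with the overlap. Among NC peaks of up to 200 exonic bases, 30.2% of start codon peaks and 27.2% of other protein-coding peaks were overlapped, and over 200 and up to 400 bases 64.1% and 52.1%. Above 400 bases they were 85.5% and 80.5%. In the CHAPIR list these pairs were 58.3% and 54.1%, 87.5% and 85.7%, and 99.4% and 96.9%. At like width the difference from other peaks was therefore small, except for NC peaks over 200 and up to 400 bases. The width classes were chosen after the data were seen.

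**Figure D2:**
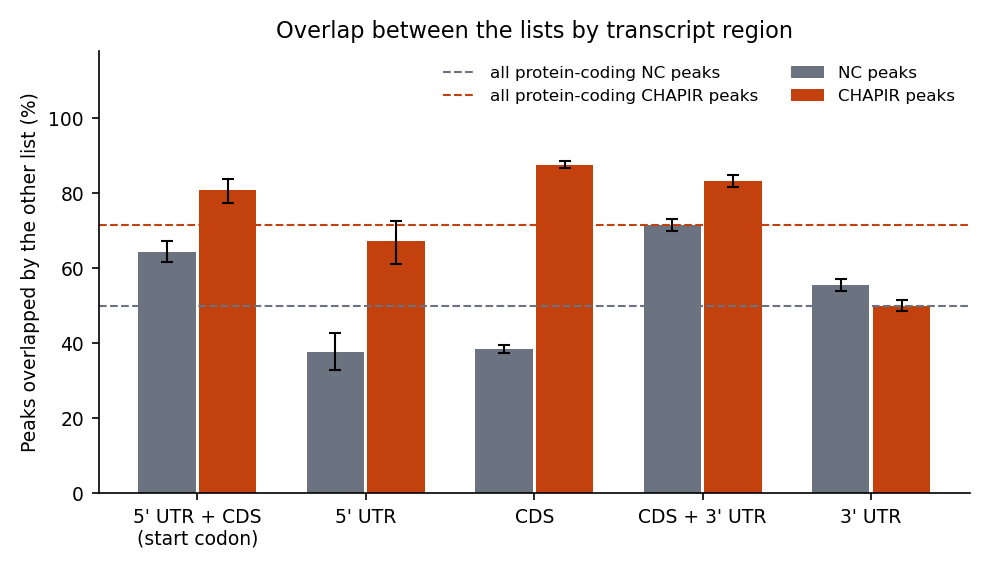
Percent of peaks that share at least 1 exonic base with a peak of the other list (y axis) by annotated transcript region (x axis). Bars are shares over lines, error bars are exact 95% intervals for counting error, and dashed lines mark all protein-coding peaks of each list at 50% (NC) and 71.5% (CHAPIR). Start codon peaks stand at 64.4% and 80.7%.

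The overlapping partner was not always a start codon peak. In the NC list, 500 start codon peaks (45.7%) met a CHAPIR peak of the same annotation and 205 met lines of other annotations only. Among those 205, 134 met a CHAPIR line in the CDS and 63 a line in the 5′ UTR, and a peak may meet several. In the CHAPIR list, 468 (71.0%) met an NC start codon peak and 64 met other lines only. For these 205 and 64 peaks a peak of the other list thus stood at the same place under another annotation.

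A start codon peak was present on the same transcript in both lists for 429 transcripts of 228 genes. All 429 pairs overlapped, which the rule sets in advance because both peaks cover the same start codon. The median width was 414 exonic bases in the NC list and 299 in that of CHAPIR. The NC peak was wider in 292 pairs, the CHAPIR peak was wider in 76, and 61 had equal width. The 5′ ends coincided in 165 pairs, with the NC peak further upstream in 174 and the CHAPIR peak in 90. The 3′ ends coincided in 95, with the NC peak further downstream in 267 and the CHAPIR peak in 67. The lists thus differed more at the downstream end than at the end in the 5′ UTR, where the rule leaves less room. All protein-coding peaks were also narrower in the CHAPIR list (181 against 240 bases), and the part of depth and of peak calling in this was not tested. Peak ends were placed on a grid, with 53.1% of NC and 56.6% of CHAPIR widths within 1 base of a multiple of 30.

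**Figure D3:**
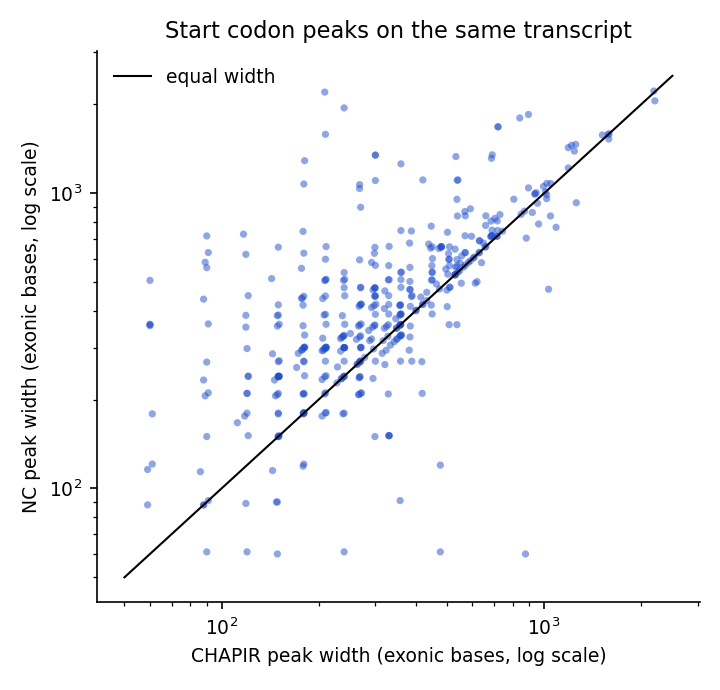
Width in exonic bases of the CHAPIR peak (x axis, log scale) and of the NC peak (y axis, log scale) for each of 429 transcripts with a start codon peak in both lists, with the line of equal width. More points lie above the line (292) than below it (76).

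By gene, 231 had a start codon peak in both lists, which is 39.7% of the 582 NC genes and 67.9% of the 340 CHAPIR genes. In 230 of the 231 the peaks overlapped, which is largely set by the rule, and in 30 a peak had the same exonic blocks in both lists. Of all genes with a protein-coding NC peak, 63.5% also had a protein-coding CHAPIR peak, and for NC genes with a start codon peak this was 81.6%. In the other direction the shares were 78.1% and 87.6%. Genes with a start codon peak were thus more often present in the other list than genes with a peak in general. For 351 genes the start codon peak was in the NC list only. A CHAPIR line of the same gene, annotated otherwise, overlapped it in 121 of them, CHAPIR lines lay elsewhere in 127, and 103 had no CHAPIR line. For 109 genes it was in the CHAPIR list only, where 36 were overlapped by an NC line, 32 had NC lines elsewhere and 41 had none.

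The 10 genes that ranked highest in both lists by the authors' p were Tnnt2, Atp2a2, Ankrd1, Hsp90ab1, Tpm1, Nexn, Ybx1, Atpif1, Uqcrh and Tpm4. Tnnt2, cardiac troponin T of the thin filament, had a peak of 995 exonic bases at 11.1-fold in the NC list (chr1:135840857-135852143, GRCm38). Its CHAPIR peak covered 937 bases at 10.7-fold, and both had an FDR of 0, too small to be written. Another Tnnt2 peak had the same 9 blocks of 433 bases in both lists. Atp2a2, the calcium pump SERCA2, had 838 bases at 6.07-fold and 690 bases at 7.75-fold. Ankrd1, a stress-responsive ankyrin-repeat protein of the sarcomere, had 778 bases at 4.10-fold and 659 at 5.04-fold. These 3 genes had long, spliced start codon peaks in both lists.

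Tpm1 had a peak of 716 bases at 5.29-fold in the NC list and of 1259 bases at 6.27-fold in the CHAPIR list, and another tropomyosin gene, Tpm4, had 750 bases at 5.93-fold and 690 at 7.06-fold. Nexn, an actin-binding protein of the Z-disc, had 2057 and 2033 bases. Hsp90ab1, a cytosolic chaperone, had 596 bases at 5.19-fold and 537 at 4-fold. Atpif1, the inhibitor of the mitochondrial ATP synthase, had 462 and 433 bases. Uqcrh, a subunit of respiratory complex III, had 547 bases in 4 blocks in both lists, at 1.79-fold and 2.76-fold. The Ybx1 peak covered 1332 bases at 5.04-fold in the NC list and 533 at 57.0-fold in the CHAPIR list. The Tpm1 peak of 716 bases and 8 blocks was also present at the same position in the CHAPIR list, at 3.74-fold. Tpm1 was thus the gene of this leading group whose best-ranked peak was wider in the CHAPIR list. Best-ranked peaks can lie on different transcripts in the 2 lists. On a shared transcript, the NC and CHAPIR peaks covered 838 and 1047 bases for Atp2a2 and 2057 and 2206 for Nexn. The NC peak was the wider in 292 of all 429 same-transcript pairs.

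The leading genes with a start codon peak in the NC list only were not bare in the CHAPIR list. Morf4l1, a chromatin-binding protein, had 597 bases at 4.13-fold (chr9:90094499-90114595). Calu, an endoplasmic reticulum calcium-binding protein, had 498 bases at 3.78-fold. The splicing factor genes Rbm39 and Syf2 had 601 bases at 4.91-fold and 626 at 7.78-fold. Trir, Hnrnpul2, Nudc and Smarca2, the last an ATPase of the SWI/SNF remodelling complex, had folds of 8.31, 9.70, 4.21 and 7.24. CHAPIR lines annotated in the CDS or in the CDS and 3′ UTR overlapped the NC peak in all 8 of these genes. In each of the 8, the overlapping protein-coding CHAPIR lines thus lay on the coding side.

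Among genes with a start codon peak in the CHAPIR list only, Fth1 ranked first by p. Fth1 encodes the ferritin heavy chain, whose translation is controlled by iron through an element in the 5′ UTR. Its peak at chr19:9982703-9982971 covered 269 bases in 1 block at 14.9-fold, and no NC line was present for the gene. Des, the intermediate filament protein desmin, had 301 bases at 21.8-fold (chr1:75360329-75360629), with 3 NC lines elsewhere in the gene. Atp5g3, a subunit of the ATP synthase, had 232 bases at 8.54-fold and no NC line. Idh2, mitochondrial isocitrate dehydrogenase, had 238 bases at 3.54-fold and no NC line. Fth1, Atp5g3 and Idh2 were thus absent from the NC list altogether, whereas desmin was not.

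Pln, phospholamban, the inhibitor of SERCA2, had 473 bases at 2.91-fold in the CHAPIR list, and an NC line in its 5′ UTR overlapped it. The same held for Pcbp2, a poly(C)-binding protein, with 240 bases at 37.1-fold, and for Pcbp1, with 301 bases at 47.9-fold. Eif2s2, the β subunit of initiation factor 2, had 719 bases at 7.39-fold and was overlapped by NC lines in the CDS. The complex I gene Ndufa5 had 315 bases at 2.21-fold, overlapped by an NC line in the CDS and 3′ UTR. For these 5 genes an NC peak stood at the same place with another annotation.

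The genes were then grouped by lists of known function, read against the shares of 11.1% (NC) and 7.99% (CHAPIR) of all genes with a protein-coding peak. Over all genes, 231 were in both lists, 351 in the NC list only and 109 in the CHAPIR list only. Sarcomere and Z-disc genes had start codon peaks in 12 of 41 genes with a protein-coding NC peak (29.3%) and in 19 of 43 with a CHAPIR peak (44.2%). Of the 19, 12 were in both lists and 7 in the CHAPIR list only, and none was in the NC list only. This split ran against that of all genes. At an FDR at or under 1e-05 the counts were 10 in both, 1 in the NC list only and 7 in the CHAPIR list only.

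Of the shared sarcomere genes, Actn2, the Z-disc crosslinker α-actinin, had 209 bases at 1.40-fold in the NC list and 329 at 9.97-fold in the CHAPIR list. Tcap, the titin-capping protein, had 208 bases at 3.02-fold and 267 at 4.46-fold. Csrp3, muscle LIM protein, had 614 bases at 2.19-fold and 570 at 4.23-fold. Ankrd23, whose start sequence is printed above, had 328 bases at 2.38-fold and 358 at 20.1-fold. Trim63 had 181 bases at 13.4-fold and 180 at 3.71-fold. In Actn2, Tcap and Ankrd23 the CHAPIR peak was the wider, unlike in most pairs.

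The 7 sarcomere genes with a start codon peak in the CHAPIR list only included Des, Cryab, Myl4, Flnc, Xirp1, Tnni3 and Trim54. Cryab, a small heat shock protein bound to desmin, had 179 bases at 1.41-fold and no NC line. Myl4, the atrial myosin light chain, had 121 bases at 3.18-fold and no NC line. Flnc, filamin C of the Z-disc, had 211 bases at 18-fold, overlapped by an NC line of a transcript that is not protein-coding. Tnni3, cardiac troponin I, had 150 bases at 2.79-fold, with 7 NC lines elsewhere in the gene. Cryab, Myl4 and Tnni3 thus had short peaks, and only Cryab and Myl4 of the 7 genes lacked any NC line.

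Calcium handling and ion channel genes had start codon peaks in 8 of 32 genes (25%) in the NC list and 7 of 32 (21.9%) in the CHAPIR list, 6 of them in both. Jph2, which ties the sarcoplasmic reticulum to the cell membrane, had 867 bases at 4.8-fold and 539 at 2.30-fold. The potassium channel gene Kcnj11 had 450 bases at 7.29-fold and 121 at 2.21-fold, and Kcnj3 had 511 at 3.57-fold and 241 at 4.49-fold. Asph, whose transcripts encode the junctional protein junctin, had 91 bases at the same place in both lists (chr4:9639207-9639297). Except for Asph, the peaks of these channels and junction genes were shorter in the CHAPIR list. Kcna5 and Popdc2 had one in the NC list only and Pln in the CHAPIR list only.

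Genes of the fetal and stress programme of the heart had 5 of 26 (19.2%) and 5 of 24 (20.8%), with Ankrd1, Atp2a2, Mef2a and Mef2c in both lists. Mef2a, a growth-linked transcription factor, had 510 bases at 13.1-fold and 360 at 5.62-fold, and Mef2c had 450 at 5.18-fold and 299 at 3.26-fold. Gata4, a cardiac transcription factor, had 91 bases at 1.87-fold in the NC list only, and no such gene was left there at an FDR at or under 1e-05 or with lists of equal length. Nuclear-encoded genes of oxidative phosphorylation had 5 of 42 (11.9%) and 10 of 70 (14.3%), 5 in both and 5 in the CHAPIR list only. The latter were Atp5g3, Ndufa5, Ndufa13, Atp5j and Ndufa1. Many more of these genes had any protein-coding peak in the CHAPIR list (70 against 42), and the same was so for cytosolic ribosomal protein genes (54 against 36). The ribosomal genes had start codon peaks in 0 of 36 and 4 of 54 (7.41%), namely Rplp1, Rpl39, Rpl41 and Rpl7l1. In both of these gene lists the share with a start codon peak was thus also higher in the CHAPIR list. Over all genes it was lower there (7.99% against 11.1%), and the cause was not tested. Fatty acid and glucose metabolism had 1 of 36 (2.78%) and 4 of 43 (9.30%), with Pdhb, a pyruvate dehydrogenase subunit, in both and Acadl, Acadvl and Pfkm in the CHAPIR list only.

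Translation factor genes had start codon peaks in 9 of 55 (16.4%) and 8 of 50 (16.0%), with 5 in both lists, 4 in the NC list only and 3 in the CHAPIR list only. Eif3j1, a subunit of initiation factor 3, had 659 bases at 9.65-fold and 509 at 6.66-fold. Abcf1 had 955 bases at 8.11-fold and 806 at 8.06-fold. Denr, which acts in reinitiation after upstream reading frames, had 630 bases at 4.05-fold and 91 at 2.58-fold. Paip1, a partner of the poly(A)-binding protein, had 208 bases at 13.4-fold and 149 at 8.58-fold. The CHAPIR list alone held Eif1, which guards start codon choice, with 236 bases at 2.05-fold and no NC line. Eif2s2 and Eif4e2, a cap-binding protein, were the others. The NC list alone held Eif3b with 655 bases at 6.70-fold and no CHAPIR line, Paip2, Abcf2 and Rps6kb1. In the 4 shared genes described, the CHAPIR peak was the shorter.

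Of the genes known for upstream reading frames or translation under stress, 2 of 24 had a start codon peak in the NC list and 3 of 24 in that of CHAPIR. Vegfa, the endothelial growth factor, had 745 bases at 6.33-fold and 388 at 3.93-fold. Atf5, a stress-induced factor with upstream reading frames, had 388 bases at 10.4-fold in the CHAPIR list only, overlapped by an NC line in the 5′ UTR. Hsp90ab1 was the other shared gene. With so few genes, both shares were near the background.

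Chromatin regulators had start codon peaks in 8 of 73 (11.0%) in the NC list and 2 of 54 (3.70%) in the CHAPIR list, with 2 in both and 6 in the NC list only. Smarcd3, a cardiac subunit of SWI/SNF, had 270 bases at 3.55-fold and 240 at 8.47-fold. Setd3, a histidine methyltransferase of actin, had 91 bases in the NC list and, at another place in the gene, 59 in the CHAPIR list. These were its peaks of smallest p, and a further NC start codon peak of 88 bases stood at the place of the CHAPIR peak. The NC list alone held Smarca2, Chd4, Eed, Brd2, Kat2b and Bptf. Chd4, the ATPase of the NuRD complex, had 570 bases at 4.85-fold, overlapped by a CHAPIR line in the CDS. Eed, a subunit of Polycomb repressive complex 2, had 391 bases at 4.29-fold and no CHAPIR line. The NC share was at the background, and the CHAPIR share was below it and rests on 2 genes. With lists of equal length, 1 gene was in both lists, 4 in the NC list only and 1 in the CHAPIR list only.

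Transcription factors of growth and early response had 13 of 70 (18.6%) and 5 of 61 (8.20%), 5 in both lists and 8 in the NC list only. Nfe2l1, a factor of proteasome gene control, had a peak with the same 2 blocks of 657 bases in both lists at 6.44-fold and 8.84-fold. Foxo4 had 627 bases at 9.01-fold and 180 at 3.16-fold, and Id1 had 264 bases in both lists at 8.85-fold and 54.1-fold. Jun, an immediate early gene, had 447 bases at 5.02-fold in the NC list only. Irf2bp1 had 477 bases at 18.2-fold, overlapped by a CHAPIR line in the 5′ UTR. The NC share was above the background and the CHAPIR share was near it. Zinc finger genes with Zfp symbols had 12 of 116 and 6 of 58, both 10.3%, and all 6 CHAPIR genes were also in the NC list. The 6 in the NC list only became 3 with lists of equal length.

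Splicing and RNA-binding protein genes had 17 of 77 (22.1%) and 10 of 67 (14.9%), 9 in both, 8 in the NC list only and 1 in the CHAPIR list only. Srsf5, a serine- and arginine-rich splicing factor, had 480 bases at 3.22-fold and 510 at 29.1-fold. Hnrnpm had 1679 bases at 5.65-fold and 841 at 7.46-fold, Hnrnpd had 1342 at 5.19-fold and 464 at 4.16-fold, and Qk had 1106 at 13.7-fold and 541 at 18.7-fold. For Hnrnpd the 2 peaks lay on different transcripts, and on the transcript of the CHAPIR peak the NC peak covered 493 bases. Mbnl1, a splicing factor of muscle maturation, had 151 bases at 1.77-fold and 300 at 5.23-fold. The peaks given for Hnrnpm and Qk were the longer in the NC list, and those of Srsf5 and Mbnl1 in the CHAPIR list. For Hnrnpd the widths were close on the same transcript. Of the m6A machinery, 3 of 15 genes had one in the NC list and 1 of 9 in that of CHAPIR. Ythdc1, the nuclear m6A reader, had 1314 bases at 15.3-fold and 687 at 9.85-fold. The cytoplasmic reader gene Ythdf3 and the writer subunit gene Wtap had one in the NC list only, of 180 and 60 bases, with 7 and 6 CHAPIR lines elsewhere, and 1 gene of this kind was left with lists of equal length. Both of these genes thus still carried CHAPIR peaks.

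Kinase and growth factor signalling genes had 8 of 72 (11.1%) and 6 of 65 (9.23%), near the background, and the 5 in the NC list only became 3 with lists of equal length. Stk11, the kinase LKB1, had 1075 bases at 5.95-fold and 180 at 3.03-fold. Dusp1, a MAP kinase phosphatase, had 298 bases at 12.5-fold in the CHAPIR list only, overlapped by an NC line in the 5′ UTR. Dvl1, a transducer of Wnt signals, had one in the NC list only, of 241 bases at 11.3-fold, and no CHAPIR line. Solute carriers had 6 of 46 (13%) and 3 of 42 (7.14%), RING and TRIM ubiquitin ligases 5 of 50 (10%) and 6 of 43 (14.0%), and mitochondrial ribosomal protein genes 2 of 48 (4.17%) and 0 of 53. Of the markers of other cells, no start codon peak was present on the 6 endothelial, 6 fibroblast and 4 smooth muscle markers with any protein-coding peak. The macrophage gene C1qa had one in the CHAPIR list only, and the adipocyte gene Fabp4 in the NC list only. Protein-coding peaks of any kind were present on 2 macrophage markers in the NC list and 5 in that of CHAPIR, and on 4 and 1 adipocyte markers. The part of cell composition in the results was not tested.

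**Figure D4:**
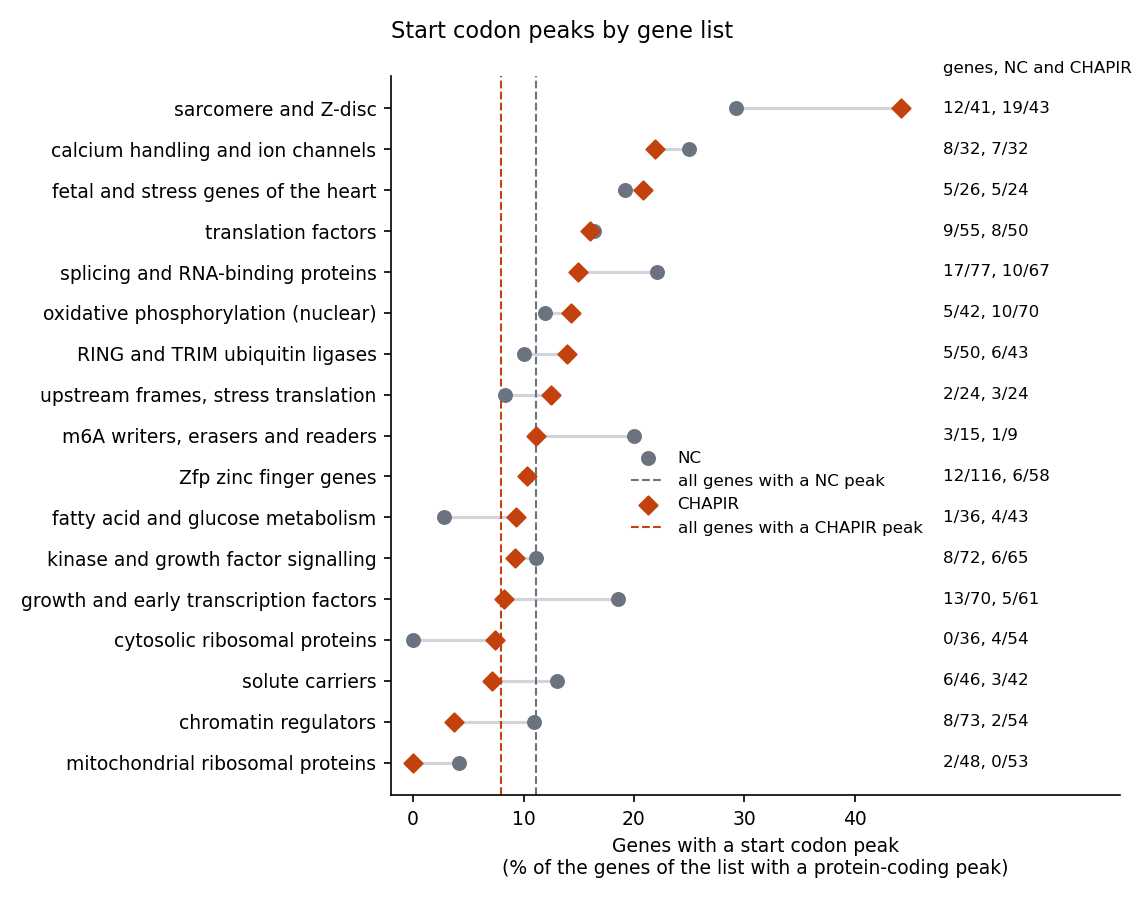
Percent of the genes of each list with a protein-coding peak that have a start codon peak (x axis), by gene list (y axis), in the NC list (circles) and the CHAPIR list (diamonds), with the numbers of genes at the right. Dashed lines mark all genes with a peak, 11.1% for NC and 7.99% for CHAPIR, and sarcomere and Z-disc genes stand furthest right at 29.3% and 44.2%.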

How the data were processed

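Per the labels' protocols, heart mRNA was fragmented to about 100 nucleotides, enriched with an antibody against m6A and sequenced, and trimmed reads were mapped. HISAT2 2.1.0 and GRCm38 are named by the submitters' processing notes. Per the labels' protocols exomePeak called the peaks, with options and use of strand not given in the sources at hand. Each condition had 1 immunoprecipitated and 1 input library, and the fold in the deposited lists is the ratio that the authors computed from the 2 for each peak. A p-value and an FDR for it were deposited as well. Depth is unknown. Starts in the deposited lists count from 0 and were raised by 1 for printing.

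Lines were selected by the deposited transcript region and compared with bedtools 2.31.1 on exonic blocks. Python 3.11.15, pandas 2.3.3, numpy 2.4.6, scipy 1.17.1 and matplotlib 3.10.9 were used, and the overlap rule returned the right shared length for all 500 simulated peaks. Transcript starts, with 250 bases before and 50 after, came from RefSeq GRCm38.p6. A distance was positive downstream of the start. Genes were named by the smallest authors' p in both lists (10) or in 1 list (8), by up to 6 members per gene list and class, and by width, identical blocks or fold (5 each), without clone and model names. A gene's values are those of its peak of smallest p unless said otherwise, and this peak may lie on different transcripts in the 2 lists. The members, the 23 gene lists and the tests were chosen with earlier results of these data known. Alternatives were stricter FDR or fold, lists of equal length, other overlap rules and other ways to count lines. No other column of per-sample values was used.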

Additional observations from a re-analysis of the deposited data

How the results depend on the processing

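No paired analysis was possible because each condition had 1 library pair. No test was made, and depth is unknown, so its limit cannot be given. Start codon peaks took a larger share of protein-coding lines in the NC list than in the CHAPIR list in every alternative run. The NC and CHAPIR shares were 8.57% and 6.46% at an FDR at or under 1e-05, and 9.04% and 6.36% at a fold of at least 4. Without lines that reach the 3′ UTR they were 5.68% and 4.66%. In lists of equal length, which keep NC lines up to a p of 2.57e-05, the NC share was 7.6%. Single-block peaks of at most 200 bases, chosen after the data were seen, gave 2.60% and 1.70%, and left 9 genes in both lists, 92 in the NC list only and 54 in the CHAPIR list only. At a fold of at least 4, 120 genes were in both. Medians at an FDR at or under 1e-05 were 418 and 301 bases and 4.83 and 4.88-fold, and 18.9% of NC peaks were in a single block. The NC median without lines that reach the 3′ UTR was 300 bases. The shares overlapped by the other list were 45.5% (NC) and 63.7% (CHAPIR) when 50% of both peaks had to be shared. Among other protein-coding peaks they were 31.1% and 44.3%. For start codon peaks they were 45.7% and 71.0% with start codon partners only. With equal lengths they were 71.3% and 74.8%, beside 61.8% and 65.6% of other protein-coding peaks. The gap between the lists thus depends on list length. Of 69 gene list counts, 8 moved by over 1.5 times at the stricter FDR and 8 with equal lengths. At the stricter FDR these were, in both lists, chromatin, kinase and ubiquitin ligase genes (1 each), in the NC list only, sarcomere (1), fetal and stress (0), m6A machinery (1) and mitochondrial ribosomal genes (1), and in the CHAPIR list only, ubiquitin ligases (2). With equal lengths they were chromatin genes in both lists (1) and in the CHAPIR list only (1), splicing genes in the CHAPIR list only (2), and, in the NC list only, fetal and stress (0), kinase (3), m6A machinery (1), mitochondrial ribosomal (1) and Zfp genes (3). The remaining values moved by less than their interval or by less than 1.5 times. Apart from the construction of each alternative, the cause was not tested.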

Other observations

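Narrow start codon peaks, in a single block of at most 200 exonic bases, place the enrichment near the start codon most closely. There were 131 such lines in 101 genes of the NC list and 88 in 63 genes of the CHAPIR list, and this limit was chosen after the data were seen. A line of the other list overlapped 29% of the NC and 56.8% of the CHAPIR lines, against 29.7% and 48.3% of other protein-coding peaks of the same form. Mb, myoglobin, the oxygen store of muscle, had 61 bases at chr15:77022578-77022638 at 1.33-fold in the NC list. In the CHAPIR list it had 120 bases at chr15:77022578-77022697 at 2.95-fold, with the same end on the side of the coding sequence. Anapc5, a subunit of the anaphase-promoting complex, had a narrow NC peak of 180 bases at 5.46-fold that was overlapped. Ier3, an immediate early gene, had 179 bases at 7.40-fold in the CHAPIR list only, beginning 1 base from the RefSeq start.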
